A study of Mus musculus with 4 samples.

Results

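The genes described here code for the main cytosolic heat shock proteins and their closest helpers. They were chosen by name, as the array probes assigned to *Hspa1a*, *Hspa1b*, *Hspa8*, *Hspb1*, *Cryab*, *Dnajb1*, *Hsph1*, *Hsp90aa1*, *Hsp90ab1* or *Bag3*, and 9 of these 10 genes had probes under their own name among the 29676 gene names on the array. The array held 14 such probes. *Hspa1b* had none of its own, because the *Hspa1a* probe lists transcripts of both genes. Expression had been measured in astrocyte-enriched cultures (AECs), mixed glial cultures from the cortex of newborn ICR mice from which microglia had been removed with PLX3397, a blocker of the receptor CSF1R on which these cells depend. AECs that were left untreated (n = 2) were compared with AECs kept for 15 h under oxygen–glucose deprivation (OGD), that is, in medium without glucose under hypoxia (n = 2). According to the study's methods, the cortices of several pups of either sex were combined for a culture. The study names as a limit that the cultures still held oligodendrocytes and possibly NG2 glia. The methods state that wells were filled from separate cultures of different pups, and the p-values measure the spread between these samples.

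Heat shock proteins are chaperones, which hold or refold other proteins. HSP70 binds exposed stretches of unfolded proteins in a cycle that is started by J-domain proteins and reset by nucleotide exchange factors, and HSP90 takes over a set of client proteins from it, while the small heat shock proteins keep unfolding proteins from clumping. Many of these genes are switched on in stress by heat shock factor 1, which binds inverted repeats of a short unit, the heat shock element.

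The *Hspa1a* probe and the brightest *Hspa8* probe are shown first, since the pair separates the stress-inducible HSP70 from the constitutive one. The probe of *Hspa1a* lies on chromosome 17, chr17:35107117-35107176 in mm9 on the minus strand, and that of *Hspa8* on chromosome 9, chr9:40612755-40613050 on the plus strand. The latter covers 296 bases with a probe of 60 bases, so it crosses a splice junction. Capitals mark the bases that are identical when the end of the first is laid over the start of the second.
Hspa1a: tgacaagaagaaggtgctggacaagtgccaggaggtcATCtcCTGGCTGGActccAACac
Hspa8: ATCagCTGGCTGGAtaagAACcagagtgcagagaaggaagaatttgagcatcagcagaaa
Of the overlaps of at least 20 bases between these probes, this one had the highest share of identical bases, 15 of 23. The probes thus read different sequences. No annotation of the files' build was used here, so exons, coding sequence and untranslated regions are not given.

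The RefSeq promoter table (GRCm38.p6), which holds the 250 bases before and the 50 bases after each annotated start, has windows for 6 of the 10 genes, namely *Hspa1a*, *Hspa1b*, *Hspb1*, *Hsph1*, *Bag3* and *Dnajb1*. *Hspa8*, *Cryab*, *Hsp90aa1* and *Hsp90ab1* were not matched. The heat shock element was searched as 2 inverted units, GAANNTTC or TTCNNGAA, each of which reads the same on both strands, and as 3 units in the same spacing, which contains overlapping matches of the shorter form. The promoters of *Hspa1a*, *Hspa1b*, *Hspb1* and *Hsph1* are shown because they hold such matches before the start, printed in capitals. The first pair covers the 250 bases before the start, at chr17:34972157-34972406 for *Hspa1a* and chr17:34959239-34959488 for *Hspa1b*, both on the minus strand.
Hspa1a: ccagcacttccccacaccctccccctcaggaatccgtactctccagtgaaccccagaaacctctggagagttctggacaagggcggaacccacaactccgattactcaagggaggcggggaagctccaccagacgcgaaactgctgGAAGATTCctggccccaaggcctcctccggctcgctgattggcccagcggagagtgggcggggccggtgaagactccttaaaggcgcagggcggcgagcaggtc
Hspa1b: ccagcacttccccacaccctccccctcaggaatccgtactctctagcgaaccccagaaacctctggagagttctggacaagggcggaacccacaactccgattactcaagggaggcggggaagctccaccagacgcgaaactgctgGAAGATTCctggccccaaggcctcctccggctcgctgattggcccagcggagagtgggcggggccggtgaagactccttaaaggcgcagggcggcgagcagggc
The stretch of *Hspb1* runs from 140 to 61 bases before the start, chr5:135887779-135887858 on the plus strand. That of *Hsph1* covers the last 80 bases before the start of its first window, chr5:149636337-149636416 on the minus strand.
Hspb1: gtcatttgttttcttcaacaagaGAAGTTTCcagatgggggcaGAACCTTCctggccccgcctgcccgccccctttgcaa
Hsph1: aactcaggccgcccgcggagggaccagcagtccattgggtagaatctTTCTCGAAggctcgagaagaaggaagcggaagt
The promoters of *Hspa1a* and *Hspa1b* were identical at 247 of 250 bases and shared 1 match of 2 units, which began 104 bases before the start. *Hspb1* had 2 matches, 117 and 97 bases before the start. *Hsph1* had 1 match before the start and a match of 3 units after it in both of its windows, *Bag3* had 1 match that began at base 43 after the start, and the windows of *Dnajb1* had none of these letters. Of all 32851 windows in the table, 15.1% held a match of 2 units and 0.603% a match of 3 units. A match is a description of the letters and not a site of binding.

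**Figure D1:**
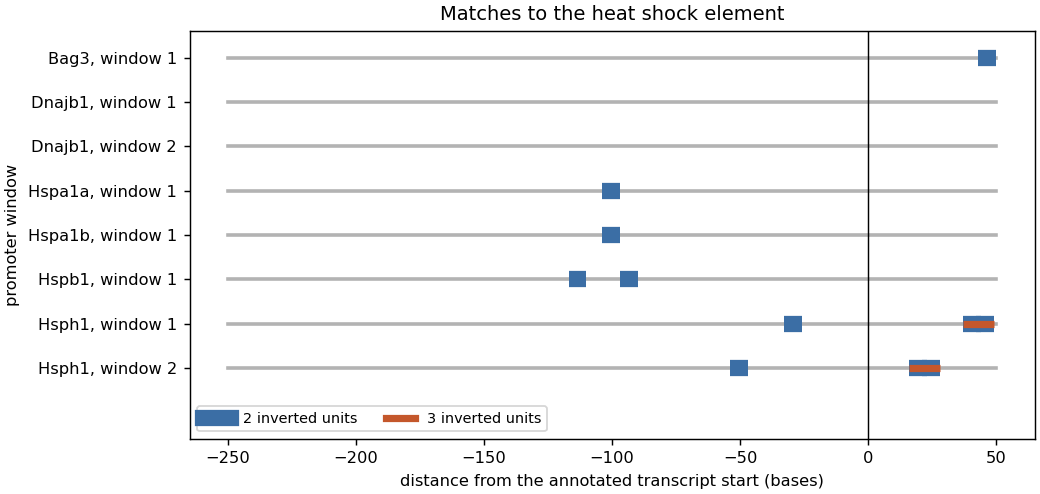
Matches to the heat shock element in the promoter windows of 6 heat shock genes, with the distance from the annotated transcript start in bases on the horizontal axis and 1 line per window. Blue bars are matches of 2 inverted units and orange bars of 3, and the match of *Hspa1a* and *Hspa1b* sits at the same place, 104 bases before the start.

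The 4 arrays shared 1 slide and 1 scan. Values are the processed signal, a background-subtracted brightness in arbitrary units, and a probe counts as well above background where the image software marked it so. The 75th percentile of the signal was 2135 and 2164 on the untreated arrays but 887 and 776 after OGD. The probes for a spiked-in control RNA differed between the groups by a mean of −0.08 on the log2 scale, and single probes by −0.75 to 0.28. The choice of scale thus shifts each fold change by the same amount. The spread between the spiked-in probes does not enter any p-value given here. Fold changes are given after setting each array to its 75th percentile, and again after setting it to the spiked-in probes. The former is the normalization named in the methods. Over 21051 genes the median log2 fold change, OGD over untreated, was 0.16 on the first scale and −1.13 on the second. The astrocyte markers were well above background on all 4 arrays for 12 of 12 genes, with a summed level of 167 to 187 times the 75th percentile in untreated AECs and 257 to 266 times after OGD, while on the spike-in scale the sum was 95.7 to 101 and then 59.6. On the 75th-percentile scale 7 of them were called higher and 2 lower. Of 10 microglia markers, 7 were well above background on all arrays, with a summed level of 2.09 to 2.37 untreated and 6.57 to 6.80 after OGD in the same unit (on the spike-in scale 1.2 to 1.29 and 1.48 to 1.58). *Cx3cr1*, *C1qa* and *Trem2* were well above background only on some arrays. Of 10 oligodendrocyte markers 9 were well above background on all arrays, with a summed level of 36.2 to 38.6 untreated and 43.6 to 45.3 after OGD (on the spike-in scale 20.7 to 20.9 and 10.1 to 10.2). Single markers went both ways on the 75th-percentile scale, with 4 higher and 2 lower of 9 tested for microglia and 4 higher and 3 lower of 10 for oligodendrocytes. The 6 markers of NG2 glia summed to 21.8 to 22.5 untreated and 37.7 to 38.5 after OGD (on the spike-in scale 12.2 to 12.5 and 8.48 to 8.91), with 2 higher and 3 lower. The part of these cells in the results below was not tested. In bulk RNA, fewer cells of a type and less RNA per cell cannot be told apart.

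*Hspa1a* was the gene of the family that changed most. The inducible HSP70 it codes for is made in little amount in unstressed cells and in quantity after heat or other protein damage. Its probe, A_55_P2068459, gave signals of 231 and 275 in untreated AECs and of 4254 and 4769 after OGD, and it was well above background on all 4 arrays. Both OGD arrays lay far above both untreated arrays, with no scaling applied. After 75th-percentile scaling the level rose 46.3-fold, a log2 fold change of 5.53 (SE 0.17, limma adjusted p = 0.000729), which placed it 22nd of 21051 genes ranked by increase. After spike-in scaling the rise was 19.0-fold, a log2 fold change of 4.24 (SE 0.17, adjusted p = 6.7e-05). It was called higher in each of the 19 settings of processing that were run, with adjusted p-values from 9.6e-07 to 0.0229. Since the probe lists transcripts of *Hspa1a* and *Hspa1b*, the share of each copy cannot be told apart.

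Of the 9 genes with a probe, 8 were called higher after OGD at an adjusted p below 0.05 on the 75th-percentile scale, against 37.1% of all genes tested, and 0 were lower, against 27.8%. *Hspa1a* was also the 1 gene over a limit of 10-fold, which 0.708% of all genes passed upward. The log2 fold changes of the other 8 genes lay between 0.35 and 1.45, and the median of the 9 was 0.93. On the spike-in scale 1 gene was higher, *Hspa1a*, against 3.84% of all genes, and 5 were lower, *Hspa8*, *Hsph1*, *Hsp90aa1*, *Hsp90ab1* and *Bag3*, against 83.3% of all genes. On that scale the median of the 9 was −0.36. With quantile normalization 3 genes were called higher, *Hspa1a*, *Cryab* and *Dnajb1*, against 28.4% of all genes. When either untreated array was left out 5 were higher, against 21.7% of all genes without the first and 17.9% without the second.

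**Figure D2:**
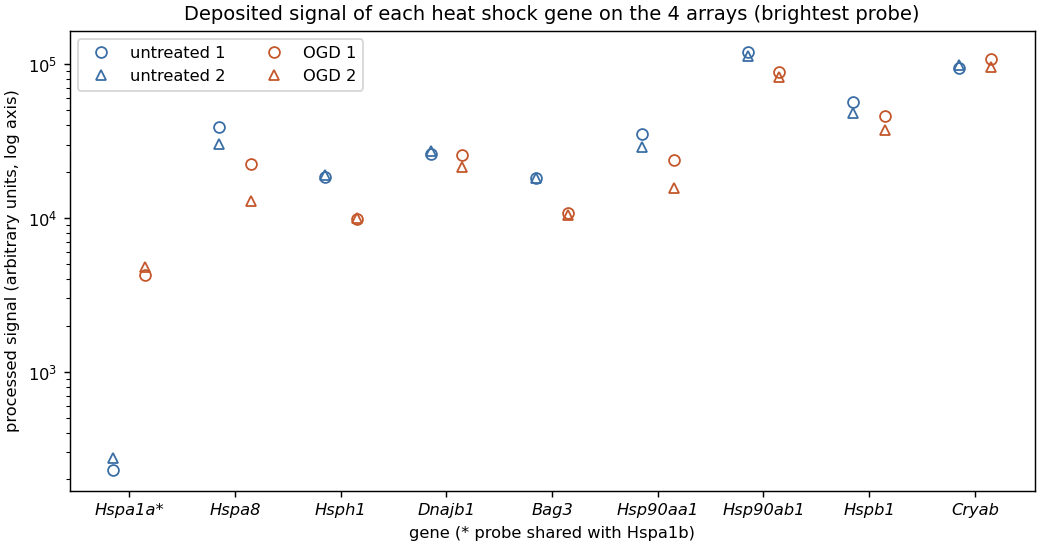
Deposited processed signal of the brightest probe of 9 heat shock genes (horizontal axis) on each array, in arbitrary units on a log axis. Circles are replicate 1 and triangles replicate 2 of untreated (blue) and OGD (orange) AECs, and *Hspa1a* is the gene whose OGD signals, 4254 and 4769, stand far above the untreated ones, 231 and 275.

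**Figure D3:**
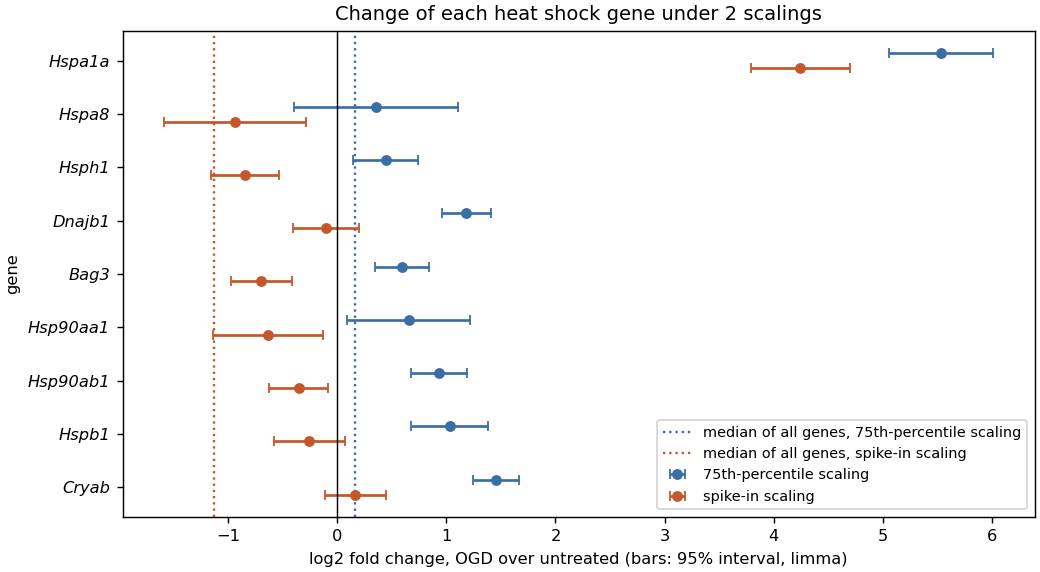
Log2 fold change of each heat shock gene, OGD over untreated, on the horizontal axis with its 95% interval from limma, for 75th-percentile scaling (blue) and spike-in scaling (orange). Dotted lines are the medians of all genes tested, 0.16 and −1.13, and *Hspa1a* is the gene whose interval lies above 0 on both scales.

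*Hspa8*, which codes for the constitutive HSP70 of the cytosol, was read by 3 probes that did not change alike. The brightest, shown above, gave 39079 and 30399 untreated and 22321 and 12913 after OGD. A_55_P2080603 gave 30472 and 27730 untreated and 17977 and 9461 after OGD, and A_52_P12877 gave 24394 and 26682 untreated and 18225 and 17085 after OGD. Both OGD arrays were below both untreated arrays on each probe, and the second OGD array was the lower one, widely so on the first pair of probes. On the 75th-percentile scale the log2 fold change was 0.35 (SE 0.27, limma adjusted p = 0.305) for the brightest probe, 0.22 (adjusted p = 0.531) for A_55_P2080603 and 0.84 (adjusted p = 0.00343) for A_52_P12877. The gene was therefore not called by its brightest probe, with an interval from −0.40 to 1.1, but would be by A_52_P12877. The value of the brightest probe was 0.05 without OGD replicate 1 and 0.65 without OGD replicate 2, and it was not called in either case. On the spike-in scale the same probes stood at −0.94 (adjusted p = 0.0179), −1.07 (adjusted p = 0.015) and −0.45 (adjusted p = 0.018), so that all 3 were lower after OGD.

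*Hsph1*, the HSP110 that resets HSP70 by nucleotide exchange, had 2 probes. The brighter gave 18563 and 19085 untreated and 9815 and 9947 after OGD, and the other gave 6394 and 6835 untreated and 3988 and 3850 after OGD. The replicates of each group lay close together and the groups did not overlap. The log2 fold changes were 0.44 (SE 0.11, limma adjusted p = 0.0264) and 0.62 (adjusted p = 0.00776) on the 75th-percentile scale, against −0.84 (adjusted p = 0.00181) and −0.67 (adjusted p = 0.00399) on the spike-in scale.

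*Dnajb1* codes for HSP40, the J-domain protein that hands substrates to HSP70. Its signals were 26062 and 27395 untreated and 25581 and 21473 after OGD. The OGD signals were close to, and slightly below, those of untreated AECs. On the 75th-percentile scale it rose 2.27-fold, a log2 fold change of 1.18 (SE 0.08, limma adjusted p = 0.00142), and on the spike-in scale the log2 fold change was −0.10 (adjusted p = 0.424, interval from −0.40 to 0.19). *Bag3*, an exchange factor that links HSP70 to the removal of damaged proteins by autophagy, gave 18107 and 18287 untreated and 10790 and 10390 after OGD. Replicates again lay close together. The log2 fold change of *Bag3* was 0.59 (SE 0.09, adjusted p = 0.00757) on the 75th-percentile scale and −0.70 (adjusted p = 0.00259) on the spike-in scale.

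The HSP90 genes are *Hsp90aa1*, the form that is more readily induced by stress, and *Hsp90ab1*, the steady form. *Hsp90ab1* gave 119476 and 112784 untreated and 88421 and 82763 after OGD, and no spot on any array was marked as saturated. It rose by a log2 fold change of 0.93 (SE 0.09, limma adjusted p = 0.00265) on the 75th-percentile scale and stood at −0.36 (adjusted p = 0.0237) on the spike-in scale. *Hsp90aa1* gave 35087 and 28865 untreated and 23834 and 15665 after OGD, with a wider gap between the replicates. Its log2 fold change was 0.65 (SE 0.20, adjusted p = 0.0495), just inside the limit, and −0.63 (adjusted p = 0.0275) on the spike-in scale. It was called higher in 9 of the 19 settings that were run. A second *Hsp90aa1* probe, A_55_P2352652, gave 3.10, 4.18, 3.26 and 3.76, was not well above background on any array and was not tested.

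*Cryab* and *Hspb1* are small heat shock proteins, which bind unfolding proteins without using ATP. The brighter *Cryab* probe gave 94634 and 98391 untreated and 108272 and 96011 after OGD, and the other gave 17786 and 17924 untreated and 17799 and 18768 after OGD. Before scaling, the groups overlapped on both probes. *Cryab* rose 2.74-fold on the 75th-percentile scale, a log2 fold change of 1.45 (SE 0.08, limma adjusted p = 0.000988), with 1.41 (adjusted p = 0.00216) for the second probe. On the spike-in scale the changes were 0.16 (adjusted p = 0.205, interval from −0.12 to 0.45) and 0.12 (adjusted p = 0.41). *Hspb1*, which codes for HSP27 (also called HSP25 in mice), gave 57038 and 48318 untreated and 45899 and 37371 after OGD. It rose by a log2 fold change of 1.03 (SE 0.12, adjusted p = 0.00444) on the 75th-percentile scale and stood at −0.26 (adjusted p = 0.109) on the spike-in scale.

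Changes of one gene relative to another within an array do not depend on a scale that moves each array as a whole. With 2 arrays a group, the exact permutation test (two-sided) cannot go below p = 0.333, so these 6 comparisons give sizes only. The log2 ratio of *Hspa1a* to *Hspa8* was higher after OGD by 5.18 (exact p = 0.333), a factor of 36.3, and that of *Dnajb1* to *Hspa8* by 0.83 (exact p = 0.333). *Hspb1* over *Cryab* was lower after OGD by a log2 difference of −0.42 (exact p = 0.333). In these 3 pairs the groups did not overlap. The differences for *Hsp90aa1* over *Hsp90ab1*, −0.28 (exact p = 0.667), for *Bag3* over *Hspa8*, 0.24 (exact p = 0.667), and for *Hsph1* over *Hspa8*, 0.09 (exact p = 1), were within the spread between replicates, since the groups overlapped. The ratios over *Hspa8* carry the gap between its OGD arrays, described above.

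**Figure D4:**
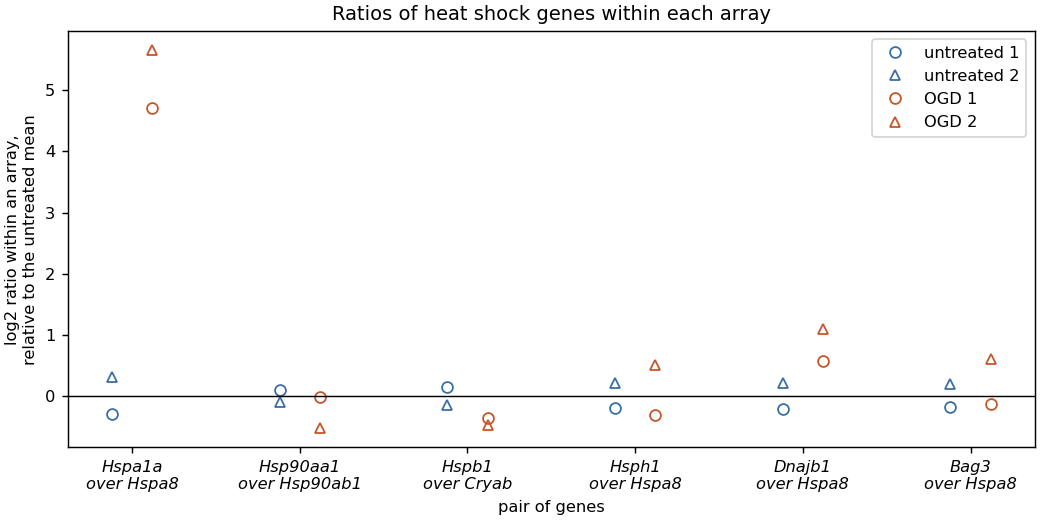
Log2 ratio of 6 pairs of heat shock genes within each array (brightest probes), relative to the mean of the untreated arrays, with circles for replicate 1 and triangles for replicate 2 of untreated (blue) and OGD (orange) AECs. *Hspa1a* over *Hspa8* was higher by 5.18, while in the 3 pairs *Hsp90aa1* over *Hsp90ab1*, *Hsph1* over *Hspa8* and *Bag3* over *Hspa8* the groups overlapped.

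The rest of the chaperone network was read from 9 lists with 80 genes, of which 79 were tested. On the 75th-percentile scale 49 were higher and 9 lower, to be read against the 37.1% and 27.8% of all genes given above. Their median change was 0.59 on the log2 scale, beside 0.16 for the whole array. On the spike-in scale 1 of the 79 was higher and 64 were lower, against 3.84% and 83.3% of all genes, so the rises named below hold for the 75th-percentile scale. A gene stands here for its brightest probe, and of 10 other tested probes of the genes named, *Dnajc5* below left aside, 5 were called in the same direction. Among the other cytosolic HSP70 and HSP110 genes, 2 of 7 were higher and 4 lower, with a median of −0.59, and on the spike-in scale 7 of 7 were lower. *Hspa4* and *Hspa4l*, both of the HSP110 type, rose by 0.82 (limma adjusted p = 0.00299) and 0.77 (adjusted p = 0.00267) on the log2 scale. The other *Hspa4* probes stood at −0.32 (adjusted p = 0.516) and −0.20 (adjusted p = 0.353). *Hspa2*, an HSP70 best known from the testis, fell by 0.93 (adjusted p = 0.00197) and *Hspa12b*, a distant relative found in endothelium, by 1.09 (adjusted p = 0.0234), the latter being well above background on 1 of the OGD arrays. *Hspa12a* was not well above background on either OGD array and was at least 2.69-fold lower there (adjusted p = 0.00448).

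Of the other small heat shock proteins, 4 of 7 were higher and 2 lower, and on the spike-in scale 0 were higher and 6 lower. *Hspb3* fell by 1.88 (limma adjusted p = 0.00228) and *Hspb2* by 0.51 (adjusted p = 0.0346) on the log2 scale. These are muscle-type members, and *Hspb2* neighbours *Cryab* in the genome. *Hspb6* rose by 0.77 (adjusted p = 0.00332) but stood at −0.52 (adjusted p = 0.00807) on the spike-in scale, and *Hspb7* and *Hspb9*, which were dim at signals of 9.51 to 64.9, by 0.95 (adjusted p = 0.0101) and 0.97 (adjusted p = 0.00419).

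Among cochaperones of HSP70, the J-domain list had 3 of 10 genes higher and 1 lower, and the list of exchange and adaptor factors 4 of 8 higher and 1 lower. The share of 3 in 10 lies below that of all genes, 37.1%, and on the spike-in scale 9 of 10 and 7 of 8 were lower. *Dnajb4*, a close relative of *Dnajb1*, gave 1085 and 1161 untreated and 1717 and 1736 after OGD, and its log2 fold change of 1.99 (limma adjusted p = 0.00105) was the largest rise of a brightest probe in the 9 lists. It was also higher on the spike-in scale, by 0.71 (adjusted p = 0.00416), the 1 gene of the 79 for which this held by the brightest probe. Other probes went further, A_66_P133450 of *Dnajb9* at 2.64 (adjusted p = 0.000965) and 3 dimmer probes of *Dnajc5* at 2.22, 2.35 and 2.54, and these were higher on the spike-in scale as well. The brightest *Dnajc5* probe did not rise with them, at −0.22 (adjusted p = 0.525) and, on the spike-in scale, −1.51 (adjusted p = 0.00413), so that the probes of this gene disagree. *Dnajc5*, a J-domain protein of vesicles, is named after its values were seen. *Dnaja4* and *Dnaja2* rose by 0.59 (adjusted p = 0.00516) and 0.42 (adjusted p = 0.0162), but a second *Dnaja2* probe fell by 0.52 (adjusted p = 0.0122), and *Dnajb5* fell by 0.41 (adjusted p = 0.0163), with −0.39 (adjusted p = 0.0751) for its second probe. *St13*, the HSP70-interacting protein Hip, rose by 1.58 (adjusted p = 0.000999), with 0.29 (adjusted p = 0.0516) on the spike-in scale. *Bag1* rose by 0.98 (adjusted p = 0.00231) and *Stub1*, the ubiquitin ligase CHIP, by 0.56 (adjusted p = 0.00931), while *Hspbp1* fell by 0.42 (adjusted p = 0.0172).

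The HSP90 cochaperones had 6 of 12 genes higher and 1 lower, and on the spike-in scale 0 higher and 11 lower. *Stip1*, the adaptor Hop that joins HSP70 to HSP90, rose by 1.12 (limma adjusted p = 0.00223) on the log2 scale, *Cdc37*, which brings kinases to HSP90, by 0.88 (adjusted p = 0.00203) and *Fkbp5*, a regulator of the glucocorticoid receptor, by 0.87 (adjusted p = 0.00211). *Unc45a*, which helps to fold myosin, fell by 0.72 (adjusted p = 0.0111). In the list of the CCT chaperonin and prefoldin, which fold actin and tubulin, 11 of 14 were higher and 0 lower, led by *Pfdn2* at 1.32 (adjusted p = 0.00175), *Cct5* at 1.02 (adjusted p = 0.00212) and *Cct6a* at 1.00 (adjusted p = 0.00194). On the spike-in scale 0 of these 14 were higher and 10 lower.

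*Hsf1*, the factor that drives the heat shock genes, gave 3358 and 3613 untreated and 2010 and 2138 after OGD, a log2 fold change of 0.62 (limma adjusted p = 0.0176) on the 75th-percentile scale and of −0.66 (adjusted p = 0.00735) on the spike-in scale. *Hsf2* stood at 0.27 (adjusted p = 0.0532) and *Hsbp1*, which binds heat shock factor 1, rose by 1.03 (adjusted p = 0.00165). In that list 2 of the 4 genes tested were higher and 0 lower, and on the spike-in scale 0 were higher and 2 lower, with *Hsbp1* at −0.26 (adjusted p = 0.0732).

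Chaperones of the organelles were higher as well on the 75th-percentile scale. In the mitochondrial list 7 of 7 were higher, with *Hspa9*, the HSP70 of mitochondria, at 1.33 (limma adjusted p = 0.00108), *Hspe1* at 0.89 (adjusted p = 0.00267; another probe 0.32, adjusted p = 0.296), *Clpb* at 0.69 (adjusted p = 0.00358) and *Hspd1* at 0.59 (adjusted p = 0.00767). In the list of the endoplasmic reticulum 10 of 10 were higher, with *Pdia4* at 1.14 (adjusted p = 0.00199), *Dnajb9* at 1.13 (adjusted p = 0.00189), *Hsp90b1* at 1.02 (adjusted p = 0.00203) and *Hspa5*, the HSP70 BiP, at 0.93 (adjusted p = 0.00516). On the spike-in scale 0 genes of both lists were higher, and 6 of 7 and 6 of 10 were lower, against 83.3% of all genes.

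**Figure D5:**
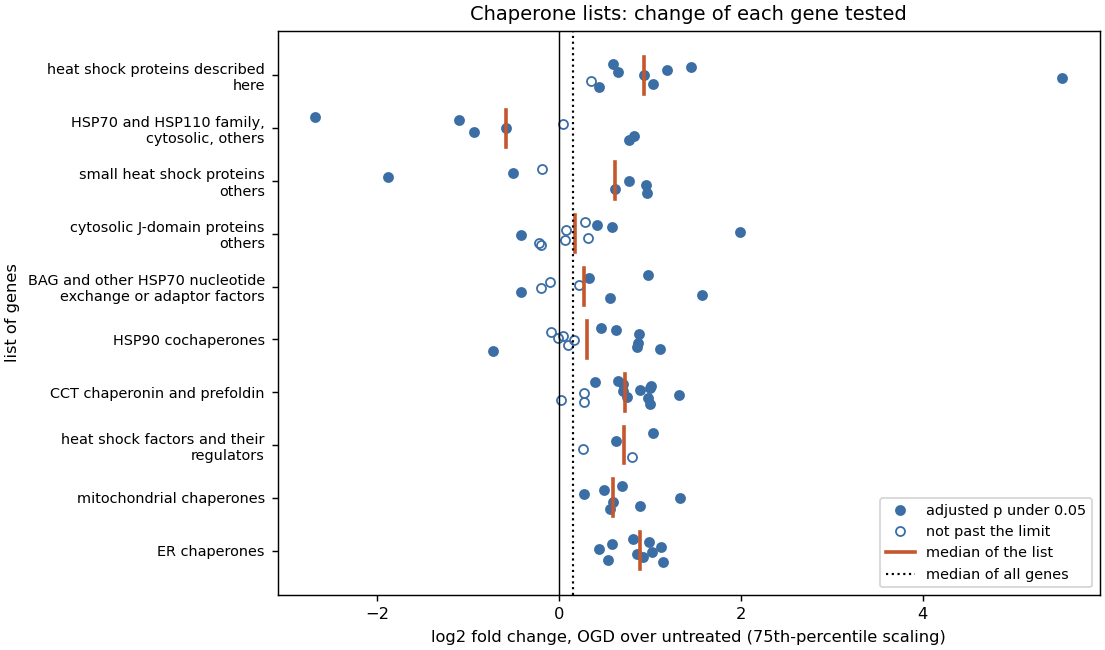
Log2 fold change, OGD over untreated, on the 75th-percentile scale for each gene tested in 9 chaperone lists and for the heat shock proteins described here (top line). Filled points passed an adjusted p of 0.05, orange bars are medians of lists and the dotted line is the median of all genes, 0.16. *Hspa1a*, at 5.53, stands apart from all the other points.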

How the data were processed

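Cy3-labeled RNA of 4 AEC samples, 2 untreated and 2 after 15 h of OGD, had been hybridized to mouse 4x44K v2 arrays in a single color. The authors deposited an intensity per spot, the processed signal of Agilent Feature Extraction (11.5.1.1 in the submitters' processing notes), which is background-subtracted and not normalized between arrays. The authors' series table holds the same intensity values (largest difference 0). Probe positions are on mm9.

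From the deposited intensity, control spots and outlier spots were left out, log2 values were averaged per probe, and the 75th percentile of each array was subtracted. The 28258 probes marked well above background (at least a fraction of 0.5 of spots) in at least 1 complete group entered the test with lmFit and eBayes of limma 3.58.1 (R 4.3.3) and Benjamini–Hochberg adjustment over all of them. 13 of the 14 probes of the heat shock genes were among them. Each gene was represented by its brightest probe over the 4 arrays. A probe not well above background on both arrays of a group was given as a bound, against the higher of its own signal and the lowest signal of a probe well above background on each array. The spike-in scale used the mean of 9 of 10 E1A control probes, which differed between groups by −0.75 to 0.28 on the log2 scale. Ratios within an array were compared with the exact permutation test over arrays. The fit was tested on simulated data with a limit of 10-fold, so that test does not cover the smaller changes given here. Python 3.11.15, pandas 2.3.3, numpy 2.4.6 and matplotlib 3.10.9 made the tables and figures.

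The genes and lists were chosen with earlier results of these data known. Named beside the heat shock genes were up to 3 genes with the largest rise and up to 3 with the largest fall in each list among those with an adjusted p below 0.05, and *Hsf1*, *Hsf2*, *Hspa5*, *Hsp90b1*, *Hspa9*, *Hspd1* and *Hspe1*. Marker lists also covered NG2 glia (4 of 6 genes well above background on all arrays), neurons (5 of 8), meningeal fibroblasts (5 of 5) and endothelium (3 of 4). Alternatives were normexp background correction (offset 50), quantile, median and spike-in scaling, a 75th percentile taken from probes well above background on all arrays, no or a stricter filter, outlier spots kept, the series table, limma with a trend in intensity and a robust prior, the methods' t-test, a block for the replicate number, another choice of probe, each array left out, and limits of 2-fold and 10-fold. Precision rests on the number of arrays and the signal over background. The ratio of *Hspa1b* to *Hspa8* was not computed, since no probe carries that name, and protein sequences were not used here.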

Additional observations from a re-analysis of the deposited data

How the results depend on the processing

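The rise of *Hspa1a* kept its direction and call under each alternative run, between 4.24 and 5.71 on the log2 scale. Under spike-in scaling the log2 fold changes of *Hspa8* (−0.94), *Hspb1* (−0.26), *Dnajb1* (−0.10), *Hsph1* (−0.84), *Hsp90aa1* (−0.63), *Hsp90ab1* (−0.36) and *Bag3* (−0.70) turned negative and *Cryab* (0.16) was no longer called. That left 1 gene higher and 5 lower, and among all probes 1262 higher and 23155 lower. Under quantile normalization *Hspa8* (−0.27), *Hsph1* (−0.0012) and *Hsp90ab1* (−0.043) turned, *Hspb1* (0.23), *Hsp90aa1* (0.021) and *Bag3* (0.14) lost the call, 3 genes were higher, and *Hsp90aa1* over *Hsp90ab1* turned to 0.064. With a 75th percentile taken from the probes well above background on all arrays, *Hsph1* (0.30) and *Hsp90aa1* (0.51) lost the call. *Hsp90aa1* also lost it without a filter on dim probes (0.65), with outlier spots kept (0.64), with the mean over its probes (0.65) and, like *Hsph1* (0.44), under the methods' t-test (0.65). With limits of 2-fold and 10-fold as well, 4 genes and 1 gene were higher, against 12.7% and 0.708% of all genes. Normexp background correction called 17757 probes higher, against 10709.

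With each array left out in turn, 5 to 8 heat shock genes were higher, the 5 when either untreated array was left out, and 5520 to 11069 probes were higher and 4700 to 8121 lower. The log2 fold change ranged from 0.053 (without OGD replicate 1) to 0.65 (without OGD replicate 2) for *Hspa8*, which was not called in any of them, from 0.34 to 0.55 for *Hsph1*, 0.45 to 0.86 for *Hsp90aa1* and 0.52 to 0.66 for *Bag3*. The last 3 genes lost the call without untreated replicate 1 or 2, and *Hsp90aa1* also without OGD replicate 1. Ratios over *Hspa8* ranged from −0.31 to 0.50 for *Hsph1*, negative without untreated replicate 1 or OGD replicate 2, and from −0.13 to 0.61 for *Bag3*, negative without OGD replicate 2. *Hsp90aa1* over *Hsp90ab1* ranged from −0.53 (without OGD replicate 1) to −0.024 (without OGD replicate 2), and *Hspb1* over *Cryab* from −0.57 to −0.27 (without untreated replicate 2 and 1). Where 1 array was left in a group, it was assumed to vary like the other group. Of the 312 comparisons with an alternative, 208 values kept their direction and side of the limit and 58 counts stayed within 1.5 times, among them 6 to 8 heat shock genes and 7358 to 14802 probes higher and 5322 to 8905 probes lower. Part of these could not have moved, since scaling a whole array leaves its ratios as they are and the series table holds the same values. The cause of these changes was not tested, and a fit with an array left out also rests on fewer arrays.

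Over the probes tested, the deviations between replicates correlated at −0.06 between the groups. With 2 pairs, this cannot tell whether the replicate numbers pair the samples. With the replicate number as a block, 8 heat shock genes were higher and 0 lower, *Hspa1a* stayed at 5.53 and 9920 probes were higher and 7286 lower. The SE fell from 0.27 to 0.11 for *Hspa8*, from 0.20 to 0.095 for *Hsp90aa1* and from 0.17 to 0.096 for *Hspa1a*. It rose for *Cryab*, *Dnajb1*, *Hsp90ab1* and *Bag3*.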
